A study of Homo sapiens with 12 samples.

Results

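The genes followed here encode the NF-kB transcription factors and the proteins that hold them in check. They comprise all 5 subunits (RELA, RELB, REL, NFKB1 and NFKB2), the inhibitors of the I kappa B family NFKBIA, NFKBIB and NFKBIE, the feedback inhibitor TNFAIP3 (A20) and the atypical I kappa B protein BCL3. They were chosen by name, as the rows of the deposited RPKM table whose Ensembl ID carries one of these symbols in GENCODE, and all 10 were found among the 26058 genes listed. RPKM is a read number scaled to the length of the gene (per kilobase) and to the size of the library. RNA was sequenced from serum-starved HEK293 cells, a human embryonic kidney line (WT), and from HEK293 cells in which both catalytic AMPK subunits, AMPKα1 and AMPKα2, were knocked out with CRISPR-Cas9 (AMPK KO). All cells were starved for 24 h. The treatments, in each line, were the solvent DMSO with no EGF, DMSO with EGF for the last 30 min, and 25 µM cordycepin with EGF for the last 30 min, with solvent or cordycepin present for 20 min before EGF and 50 min in all. Cordycepin (3′-deoxyadenosine) is an adenosine analogue, and DMSO was present in every group. The 6 groups held 2 libraries each, numbered 2 and 3. The labels give 50 min in one place and 20 min in another for DMSO alone, and they give the EGF concentration with different units, so it is left out here. Whether the AMPK KO line was 1 clone is not given in the sources used here, so that the knockout and other differences between the lines cannot be told apart.

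NF-kB is a family of dimeric transcription factors that wait in the cytoplasm, bound to I kappa B proteins. Signals from cytokine and growth factor receptors activate the I kappa B kinase complex, which marks the I kappa B proteins for degradation, and the freed dimers enter the nucleus. The genes of the inhibitors, above all NFKBIA and TNFAIP3, are themselves well-known NF-kB targets, which closes a negative feedback loop. NFKB2 and RELB form the dimer of the non-canonical pathway.

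The promoters are shown first, because a kappa B site in the promoter of a subunit or inhibitor gene is what makes the loop possible. RefSeq start-site windows (GRCh38.p14, 250 bases before to 50 after each start) were given for 8 of the 10 genes, in 13 windows, and were not given for NFKBIE and RELB. The kappa B decamer, searched by name on either strand, was found in 8 of the 13 windows and for 7 of the 8 genes, and RELA had no match. Over all windows of this length, 11.3% held it (3956 of 35116), and 13.3% of genes did (3619 of 27305). A match is a description of the letters and not a bound site, and the RNA data do not show which start site was used. The stretches below run 5′ to 3′ along the gene, with the matched bases in capitals (overlapping matches form 1 run).
NFKBIA, chr14:35404796-35404855, minus strand: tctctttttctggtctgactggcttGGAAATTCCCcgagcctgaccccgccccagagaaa
TNFAIP3, chr6:137867167-137867238, plus strand: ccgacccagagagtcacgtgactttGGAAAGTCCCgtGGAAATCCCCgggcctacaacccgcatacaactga
NFKB1, chr4:102501285-102501344, plus strand: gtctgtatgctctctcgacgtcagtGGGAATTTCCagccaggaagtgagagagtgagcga
NFKB2, chr10:102394446-102394534, plus strand: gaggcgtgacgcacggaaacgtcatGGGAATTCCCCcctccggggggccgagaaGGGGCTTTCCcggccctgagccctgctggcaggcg
REL, chr2:60881502-60881562, plus strand: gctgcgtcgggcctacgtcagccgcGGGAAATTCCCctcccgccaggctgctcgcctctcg
BCL3, chr19:44748685-44748744, plus strand: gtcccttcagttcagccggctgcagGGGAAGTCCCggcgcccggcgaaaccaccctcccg

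The match began 81 bases before the start in NFKBIA, 67 and 55 bases before it in TNFAIP3, 49 before it in NFKB1 and 47 before it in REL. In the NFKB2 window shown, the runs began 107 and 78 bases before the start, and a later NFKB2 start had runs 176 and 21 bases before it. In BCL3 the match lay 2 bases after the start. NFKBIB held a run 28 bases before its start and another 38 bases after it, in the part of the promoter not printed here.

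Recovered reads per library, worked out from the steps between low RPKM values, ranged from 12664905 to 26422487, apart from WT DMSO replicate 3 with 4005555. The WT DMSO replicates also differed most from each other, as their log2 values correlated across genes with r 0.918, where the replicates of the other groups had 0.961 to 0.977. The targeted genes still gave reads in AMPK KO cells. PRKAA1 was at 7.03 to 8.51 RPKM in the AMPK KO libraries and at 11.2 to 21.9 in the WT libraries, and PRKAA2 was at 5.39 to 7.43 in AMPK KO and 6.78 to 12.1 in WT, so that its lines overlapped. EGR1, an immediate early gene that EGF is known to induce, was at 2.17 to 2.64 RPKM in the DMSO libraries and at 106 to 230 in the DMSO+EGF libraries of both lines. The 9 genes listed as typical of HEK293 cells summed to 122 to 185 RPKM per library, unevenly. VIM alone had 49.1 to 82.3 RPKM, while NEFM had 0 to 0.342, PAX2 0.113 to 0.851 and LHX1 0.506 to 0.947. Of 8 blood and immune cell genes, 4 were listed, of which PTPRC, the leukocyte common antigen, did not exceed 0.061 RPKM, and LCP1 had 16.1 to 24 RPKM. In bulk RNA, fewer expressing cells and less RNA per cell cannot be told apart.

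NFKBIB was the highest of the 10 genes in every library, at a mean of 28.2 RPKM over the 12 libraries, a level above 93.5% of the 22067 genes tested. RELA followed at 9.18 RPKM, then NFKBIA at 6.49 and NFKB2 at 4.62. RELA and NFKBIA changed places between libraries, while NFKB2 held place 4 in all 12. The next 5 genes, NFKBIE (2.81 RPKM), REL (2.69), NFKB1 (2.37), TNFAIP3 (1.82) and RELB (1.55), overlapped in their order between libraries. BCL3 was the lowest in every library, at 0.501 RPKM. Per length of the longest transcript instead of all annotated exons, NFKB1 took place 5 and NFKBIE place 7, and the first 4 and the last 3 places stayed as they were.

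**Figure D1:**
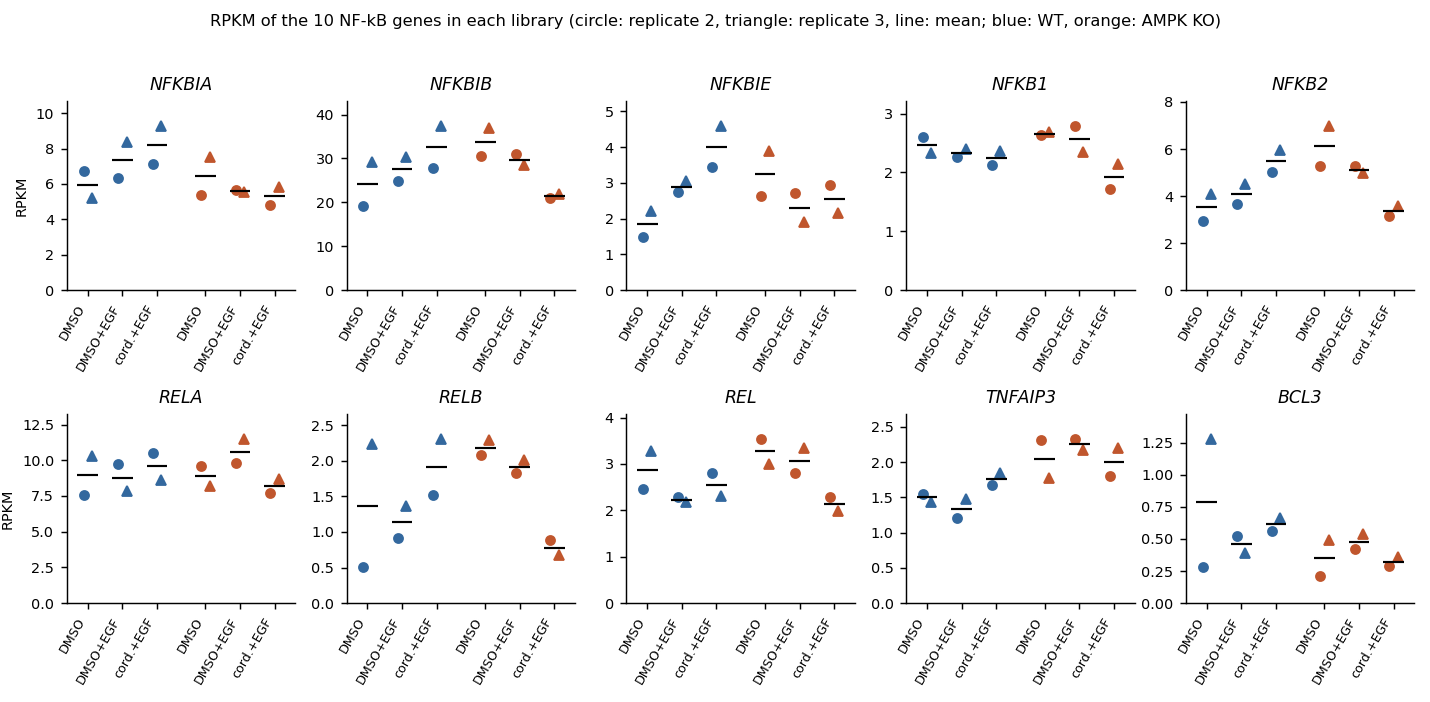
RPKM (vertical axes, from 0, each on its own scale) of the 10 genes in the 12 libraries, by group (horizontal axes), with replicate 2 as a circle, replicate 3 as a triangle and the mean of each group as a line. NFKB2 and NFKBIB were highest with cordycepin and EGF among the WT means and lowest there among the AMPK KO means, and RELB and BCL3 show the wide gap between the WT DMSO replicates.

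The I kappa B proteins come first. NFKBIA (ENSG00000100906, chromosome 14, 35401079 to 35404749, minus strand) encodes I kappa B alpha, the fast inducible inhibitor. It was at 6.75 and 5.2 RPKM in WT DMSO (replicates 2 and 3), 6.33 and 8.38 in WT DMSO+EGF, and 7.13 and 9.28 in WT cordycepin+EGF. The AMPK KO libraries had 5.36 and 7.51 RPKM in DMSO, 5.67 and 5.57 in DMSO+EGF, and 4.83 and 5.82 in cordycepin+EGF. The EGF libraries overlapped the DMSO libraries in both lines. With EGF alone, and with cordycepin and EGF, both AMPK KO libraries lay below both WT libraries, while the lines overlapped in DMSO.

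NFKBIB (ENSG00000104825, chromosome 19, 38899700 to 38908893, plus strand) encodes I kappa B beta. It was at 19.2 and 29.3 RPKM in WT DMSO, 24.9 and 30.3 in WT DMSO+EGF, and 27.8 and 37.4 in WT cordycepin+EGF. AMPK KO cells had 30.5 and 37 RPKM in DMSO, 31 and 28.4 in DMSO+EGF, and 20.9 and 21.9 in cordycepin+EGF. The pair of AMPK KO cordycepin+EGF libraries were the lowest apart from WT DMSO replicate 2. NFKBIB shares 40 exon bases with SIRT2 on the opposite strand. RELA shares 103 with RELA-DT and TNFAIP3 shares 95 with WAKMAR2, also on the opposite strand. The libraries were stranded, but whether reads were counted by strand was not examined here.

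NFKBIE (ENSG00000146232, chromosome 6, 44258166 to 44265788, minus strand) encodes I kappa B epsilon. It was at 1.5 and 2.21 RPKM in WT DMSO, 2.74 and 3.04 in WT DMSO+EGF, and 3.44 and 4.59 in WT cordycepin+EGF. Its AMPK KO levels were 2.64 and 3.88 RPKM in DMSO, 2.72 and 1.91 in DMSO+EGF, and 2.94 and 2.15 in cordycepin+EGF. The 3 WT groups did not overlap one another, and the AMPK KO groups all did. How often groups of 2 libraries separate was not counted over all genes, a limit that holds for every gene and ratio described here. In WT cells neither the EGF difference (adjusted p 0.53) nor the cordycepin difference (adjusted p 0.404) passed limma's test. NFKBIE also followed the base composition of the libraries, described below (r 0.883). These values rested on 23 to 256 reads.

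TNFAIP3 (ENSG00000118503, chromosome 6, 137867214 to 137883314, plus strand) encodes A20, a ubiquitin-editing enzyme that shuts off the I kappa B kinase complex. It was at 1.55 and 1.44 RPKM in WT DMSO, 1.21 and 1.47 in WT DMSO+EGF, and 1.68 and 1.84 in WT cordycepin+EGF. In AMPK KO cells it was at 2.31 and 1.78 RPKM in DMSO, 2.33 and 2.17 in DMSO+EGF, and 1.81 and 2.2 in cordycepin+EGF. Without EGF and with EGF alone, both AMPK KO libraries lay above both of WT, and the lines overlapped with cordycepin and EGF.

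BCL3 (ENSG00000069399, chromosome 19, 44747705 to 44760044, plus strand) encodes a nuclear I kappa B protein that binds p50 and p52 dimers. It was at 0.285 and 1.28 RPKM in WT DMSO, 0.523 and 0.393 in WT DMSO+EGF, and 0.56 and 0.665 in WT cordycepin+EGF. The AMPK KO libraries had 0.21 and 0.49 RPKM in DMSO, 0.421 and 0.538 in DMSO+EGF, and 0.287 and 0.359 in cordycepin+EGF. The value of 1.28 RPKM came from 16 reads in the shallow library, and without that library the mean fell to 0.43 RPKM, under the minimum of 0.5 for testing. With 10 to 50 reads per library, the differences of BCL3 between 2 groups had an SE of 0.343, and small ones could not be shown at this depth.

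Among the subunits, RELA (ENSG00000173039, chromosome 11, 65653599 to 65663090, minus strand) encodes p65, the main transactivating subunit. It was at 7.6 and 10.3 RPKM in WT DMSO, 9.71 and 7.83 in WT DMSO+EGF, and 10.5 and 8.63 in WT cordycepin+EGF. AMPK KO cells had 9.62 and 8.23 RPKM in DMSO, 9.82 and 11.5 in DMSO+EGF, and 7.73 and 8.67 in cordycepin+EGF. No WT group stood apart from another. The AMPK KO DMSO+EGF libraries lay above both other AMPK KO groups, and neither difference passed the test (0.25 against DMSO, adjusted p 1.0, and -0.31 for cordycepin, adjusted p 0.366).

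NFKB1 (ENSG00000109320, chromosome 4, 102501330 to 102617302, plus strand) encodes p105, the precursor of p50, and ranged between 1.72 and 2.79 RPKM. It was at 2.61 and 2.33 RPKM in WT DMSO, 2.27 and 2.39 in WT DMSO+EGF, and 2.13 and 2.36 in WT cordycepin+EGF. Its AMPK KO levels were 2.64 and 2.69 RPKM in DMSO, 2.79 and 2.35 in DMSO+EGF, and 1.72 and 2.14 in cordycepin+EGF. The AMPK KO cordycepin+EGF libraries lay below those of AMPK KO DMSO+EGF.

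REL (ENSG00000162924, chromosome 2, 60881491 to 60931612, plus strand) encodes c-Rel, best known from lymphocytes. It was at 2.45 and 3.28 RPKM in WT DMSO, 2.29 and 2.18 in WT DMSO+EGF, and 2.81 and 2.3 in WT cordycepin+EGF. In AMPK KO cells it was at 3.54 and 3 RPKM in DMSO, 2.8 and 3.34 in DMSO+EGF, and 2.28 and 1.99 in cordycepin+EGF. Its exons share 5702 bases with a lncRNA on the same strand that was not analysed here, so reads of the pair could be split.

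The non-canonical pair varied more. NFKB2 (ENSG00000077150, chromosome 10, 102394110 to 102402524, plus strand) encodes p100, which is an inhibitor until it is processed to the subunit p52. It was at 2.96 and 4.09 RPKM in WT DMSO, 3.65 and 4.5 in WT DMSO+EGF, and 5.02 and 5.97 in WT cordycepin+EGF. The AMPK KO libraries had 5.28 and 6.98 RPKM in DMSO, 5.27 and 4.97 in DMSO+EGF, and 3.17 and 3.58 in cordycepin+EGF. The cordycepin+EGF libraries lay above those of DMSO+EGF in WT cells and below them in AMPK KO cells, with no overlap in either line. The share of all genes that separate in this way was not counted.

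RELB (ENSG00000104856, chromosome 19, 45001461 to 45038192, plus strand) encodes the partner of p52. It was at 0.51 and 2.24 RPKM in WT DMSO, 0.921 and 1.36 in WT DMSO+EGF, and 1.52 and 2.31 in WT cordycepin+EGF. AMPK KO cells had 2.08 and 2.29 RPKM in DMSO, 1.83 and 2.01 in DMSO+EGF, and 0.889 and 0.67 in cordycepin+EGF. As for NFKB2, the cordycepin+EGF libraries lay above DMSO+EGF in WT and below it in AMPK KO. The WT DMSO replicates, with 26 and 27 reads at very different depths, spanned nearly the whole range of the gene.

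The effect of EGF was compared first, by limma on log2(upper-quartile-scaled RPKM + 0.5), so differences understate the change of low genes. In WT cells none of the 10 genes passed an adjusted p of 0.05 (Benjamini-Hochberg over 22067 genes), where 0.0227% of all genes did, and none had an unadjusted p under 0.05, where 9.72% of all genes did. By voom on the recovered reads, none passed either. Differences ran from -0.32 (BCL3) to 0.51 (NFKBIE), with 4 genes above 0 and 6 below, and a median of -0.0506 beside 0.0162 over all genes tested. BCL3 reached the minimum for testing only through WT DMSO replicate 3, and without that library its difference was 0.269. NFKBIA had 0.25 (95% interval -0.22 to 0.72) and TNFAIP3 -0.14 (-0.54 to 0.27), so a log2 difference of 1 on this scale lay outside either interval.

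In AMPK KO cells the adjusted call was made for 0.0136% of all genes and the unadjusted one for 2.42%, and for none of the 10 genes by limma. Voom made an adjusted call for 3 genes, none of them among the 10. Differences ran from -0.41 for NFKBIE to 0.25 for RELA, with 3 above 0 and 7 below and a median of -0.106 beside 0.00626. NFKBIA had -0.15 (95% interval -0.63 to 0.32) and TNFAIP3 0.13 (-0.28 to 0.53). The difference of the EGF effect between the lines was called for 0.0% of all genes by limma and for none by voom, and 8.69% had an unadjusted p under 0.05. NFKBIE was the 1 gene of the 10 among the latter, at -0.92 (SE 0.359, adjusted p 0.57). Its means were 1.86 RPKM in DMSO and 2.89 in DMSO+EGF in WT, and 3.26 and 2.31 RPKM in AMPK KO, and neither difference passed the test.

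The effect of cordycepin was compared between cordycepin+EGF and DMSO+EGF. In WT cells, limma made an adjusted call for 0.00453% of all genes and for none of the 10. An unadjusted p under 0.05 was reached by 16.0% of all genes and by 1 of the 10, NFKB2, with 4.07 ± 0.597 RPKM (SD, n = 2) in DMSO+EGF and 5.5 ± 0.676 RPKM in cordycepin+EGF. Its log2 difference was 0.43 (SE 0.188, adjusted p 0.308). The 10 differences had a median of 0.256 beside 0.033 over all genes tested, and 9 were above 0. NFKBIA had 0.19 (95% interval -0.28 to 0.66) and TNFAIP3 0.33 (-0.07 to 0.74).

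In AMPK KO cells the signs were the other way round for most of the genes. The adjusted call was made for 0.471% of all genes and none of the 10, and the unadjusted one for 21.8% of all genes and again only NFKB2 of the 10. NFKB2 had 5.12 ± 0.215 RPKM (SD, n = 2) in DMSO+EGF and 3.37 ± 0.289 in cordycepin+EGF, a log2 difference of -0.5 (SE 0.188, adjusted p 0.178). RELB had the largest difference, -0.89 (SE 0.4, 95% interval -1.8 to 0.01, adjusted p 0.235), with 1.92 ± 0.122 RPKM in DMSO+EGF and 0.779 ± 0.155 in cordycepin+EGF. Of the 10, 9 were below 0, with a median of -0.306 beside 0.0556, and NFKBIE was the exception at 0.16. RELB passed in a fit without the WT DMSO libraries (adjusted p 0.0497), where 1356 genes were called against 104 as reported. That fit was added after the data were seen. Over the settings other than leaving out a library, the adjusted p of RELB lay between 0.0497 and 0.252. On leaving out single libraries its difference ran from -1.02 to -0.763.

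**Figure D2:**
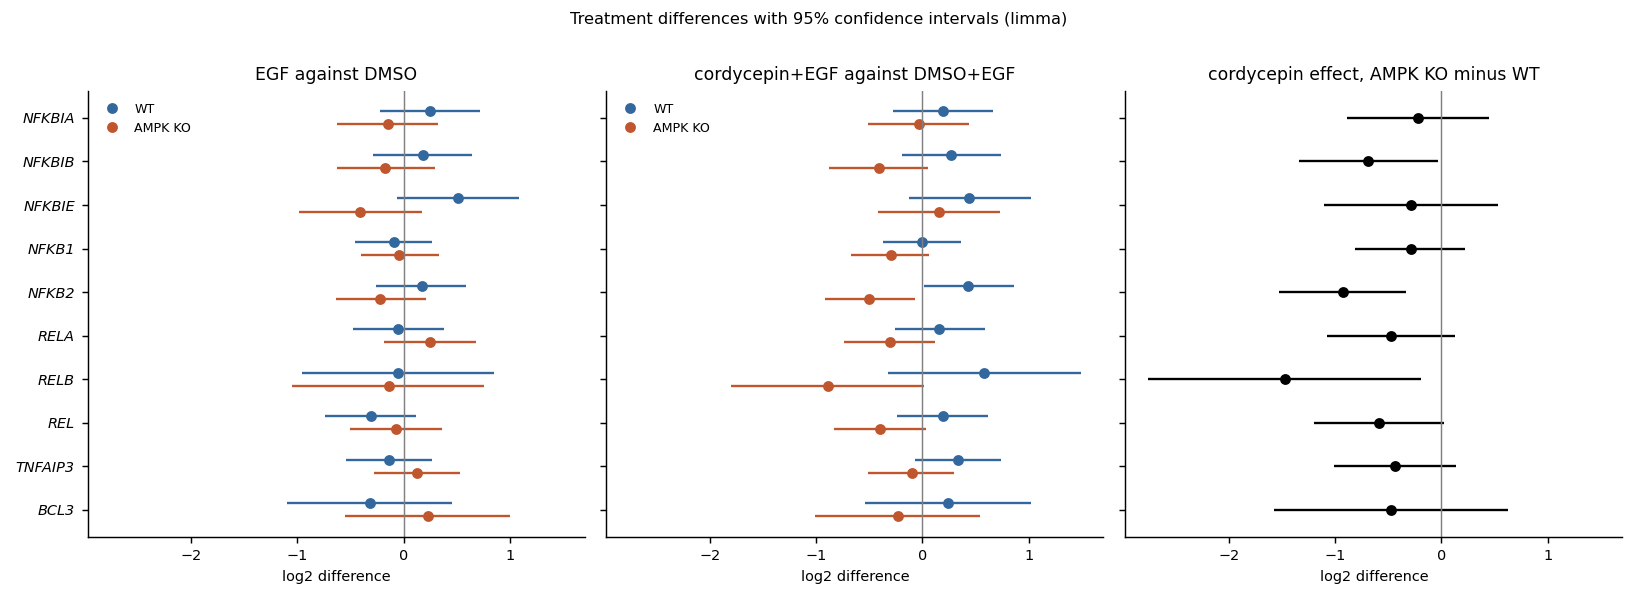
Log2 differences (points) with 95% confidence intervals (lines) of the 10 genes for EGF against DMSO, for cordycepin+EGF against DMSO+EGF (blue WT, orange AMPK KO) and for the cordycepin effect in AMPK KO minus that in WT (black). The EGF intervals all contain 0, and in the last panel all 10 points lie below 0 and the intervals of NFKBIB, NFKB2 and RELB do not reach it.

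The difference of the cordycepin effect between the lines, AMPK KO minus WT, was below 0 for all 10 genes, from -0.22 (NFKBIA) to -1.47 (RELB), with a median of -0.471 beside 0.019. Over all genes tested, 48.8% were below 0. The genes share the same 8 libraries, so their signs are not independent of each other. An unadjusted p under 0.05 was reached by 3 of the 10, with 21.4% among all genes, and limma's adjusted call was made for 0.0% of all genes. NFKB2 had -0.93 (SE 0.266, 95% interval -1.53 to -0.33, adjusted p 0.132). RELB had -1.47 (SE 0.566, interval -2.76 to -0.19, adjusted p 0.188). NFKBIB had -0.69 (SE 0.291, interval -1.34 to -0.03, adjusted p 0.22).

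The adjusted p of NFKB2 and RELB lay on either side of 0.05 depending on the setting. The fit of the 10 libraries other than WT DMSO, which does not enter the comparison, was added after the data were seen. In it NFKB2 and RELB passed, with adjusted p of 0.0445 and 0.0293 at the same differences, among 2000 genes called. Leaving out either WT DMSO library alone amounts to nearly the same fit, as the other then adds nothing to the spread. By voom on the recovered reads the adjusted p was 0.0298 for NFKB2 and 0.0354 for RELB, among 2062 genes called. With the compared groups alone they were 0.0529 and 0.0501. NFKBIB was above 0.05 in each of these. Leaving out one of the compared libraries raised the adjusted p to as much as 0.351 for NFKB2 and 0.427 for RELB.

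The lines were then compared within each condition. In DMSO, 0.44% of all genes and none of the 10 passed adjustment, and 21.3% of all genes and 3 of the 10 had an unadjusted p under 0.05, all higher in AMPK KO. NFKB2 had 3.52 ± 0.804 RPKM (SD, n = 2) in WT and 6.13 ± 1.2 in AMPK KO, a log2 difference of 0.7 (SE 0.188, 95% interval 0.28 to 1.13, adjusted p 0.106). NFKBIE had 0.65 (SE 0.254, adjusted p 0.193) and NFKBIB 0.47 (SE 0.206, adjusted p 0.23). Each of these rests on the WT DMSO libraries. Without WT DMSO replicate 3, the differences were 0.90 for NFKB2, 1.39 for RELB and 0.77 for NFKBIB. Without WT DMSO replicate 2, by contrast, they were 0.503, -0.0423 and 0.18. By voom, NFKB2 and RELB passed, with adjusted p of 0.0258 and 0.0458, among 1769 genes called against 97 as reported. Over the settings other than leaving out a library, the adjusted p of NFKB2 reached 0.447 and that of NFKBIB 0.489.

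In DMSO+EGF, 1.74% of all genes passed adjustment and 22.5% had an unadjusted p under 0.05, against none and 1 of the 10. The 1 was TNFAIP3, with 1.34 ± 0.187 RPKM (SD, n = 2) in WT and 2.25 ± 0.11 in AMPK KO. Its log2 difference was 0.59 (SE 0.179, 95% interval 0.19 to 1.0, adjusted p 0.104). It passed with array weights (adjusted p 0.0164), which with 2 libraries per group came out alike for both replicates, so that they weighted groups (0.365 for WT DMSO, 1.47 and 2.02 for WT and AMPK KO DMSO+EGF) and not single libraries, and by voom (adjusted p 0.0273), while leaving out single libraries gave 0.0637 to 0.402. With array weights 5041 genes were called, and by voom 2448, against 383 by limma as reported.

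With cordycepin and EGF, 0.118% of all genes and none of the 10 passed adjustment, and voom called none of the 10. An unadjusted p under 0.05 was reached by 13.7% of all genes and by 3 of the 10, all lower in AMPK KO. NFKB2 had 5.5 ± 0.676 RPKM (SD, n = 2) in WT and 3.37 ± 0.289 in AMPK KO, a log2 difference of -0.61 (SE 0.188, adjusted p 0.259). NFKBIA had -0.56 (SE 0.209, adjusted p 0.312), with 8.2 ± 1.52 RPKM in WT and 5.32 ± 0.702 in AMPK KO. NFKBIB had -0.56 (SE 0.206, adjusted p 0.305). Of the 10, 9 were below 0 and TNFAIP3 was above it (0.16), with a median of -0.492 beside 0.0145. The differences of 8 of the 10 were above 0 in DMSO, as were 8 in DMSO+EGF, with medians of 0.241 and 0.206 beside 0.00935 and -0.00471. The 3 comparisons use different libraries. With the replicate number as a block within each cell line, 36, 130 and 3 genes of all tested passed in DMSO, DMSO+EGF and cordycepin+EGF, in place of 97, 383 and 26, and 18 passed for cordycepin in AMPK KO cells in place of 104, with none of the 10 among them.

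**Figure D3:**
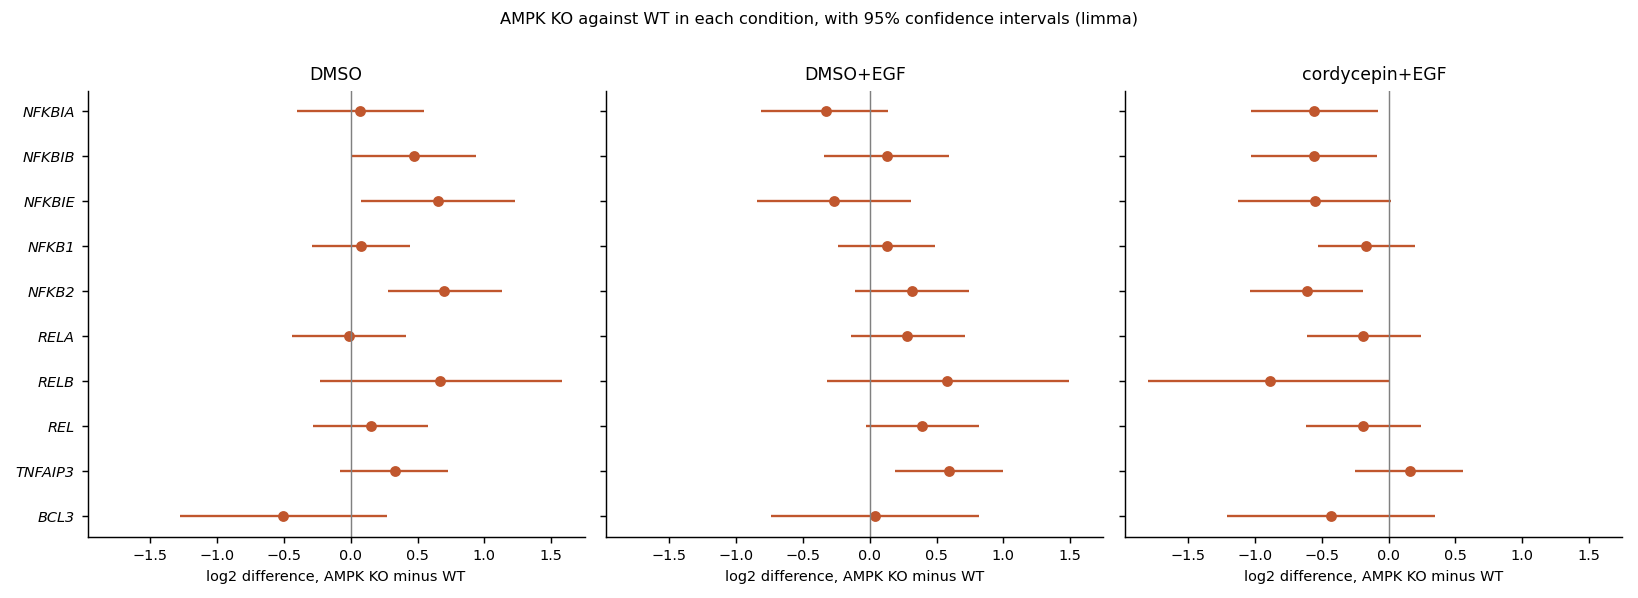
Log2 differences, AMPK KO minus WT (points), with 95% confidence intervals (lines), of the 10 genes in DMSO, DMSO+EGF and cordycepin+EGF. NFKB2 lies at 0.7 in DMSO and at -0.61 with cordycepin and EGF, and TNFAIP3 lies above 0 in all 3 panels.

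The balance between partners was read within each library, as ratios of RPKM, which no scaling between libraries can change. NFKB2 over NFKB1 was 1.61 and 1.88 in WT DMSO+EGF and 2.36 and 2.53 in WT cordycepin+EGF. The AMPK KO libraries had 1.89 and 2.12 in DMSO+EGF and 1.85 and 1.67 in cordycepin+EGF. The WT groups lay further apart than the replicates of either, with cordycepin the higher, and the AMPK KO groups lay next to each other with cordycepin the lower. NFKB2 is GC-rich (62.4%) and NFKB1 is not (36%), and after a correction for GC share the log2 effect of cordycepin in WT cells was 0.28 for NFKB2 and 0.0467 for NFKB1, in place of 0.43 and -0.00885. RELB over RELA was 0.187 and 0.175 in AMPK KO DMSO+EGF and 0.115 and 0.0772 in AMPK KO cordycepin+EGF, and the WT groups overlapped, with 0.0949 and 0.174 in DMSO+EGF and 0.144 and 0.268 in cordycepin+EGF. NFKBIA over RELA, the fast inhibitor over the main subunit, was 0.652 and 1.07 in WT DMSO+EGF and 0.679 and 1.08 in WT cordycepin+EGF, so the replicates differed more than the groups. In AMPK KO it was 0.577 and 0.486 in DMSO+EGF and 0.624 and 0.671 in cordycepin+EGF, with no overlap and cordycepin the higher. NFKBIB exceeded NFKBIA by 2.85 to 5.7 times in all libraries.

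NFKBIB, NFKB2 and RELB moved together over the 12 libraries. Pearson's r of the log2 values was 0.942 between NFKBIB and NFKB2, 0.915 between NFKBIB and RELB and 0.859 between NFKB2 and RELB. The feedback inhibitors NFKBIA and TNFAIP3 did not follow each other (r -0.307), nor did NFKBIA and RELA (r -0.381). These are descriptions over libraries that share groups, depth and base composition.

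**Figure D4:**
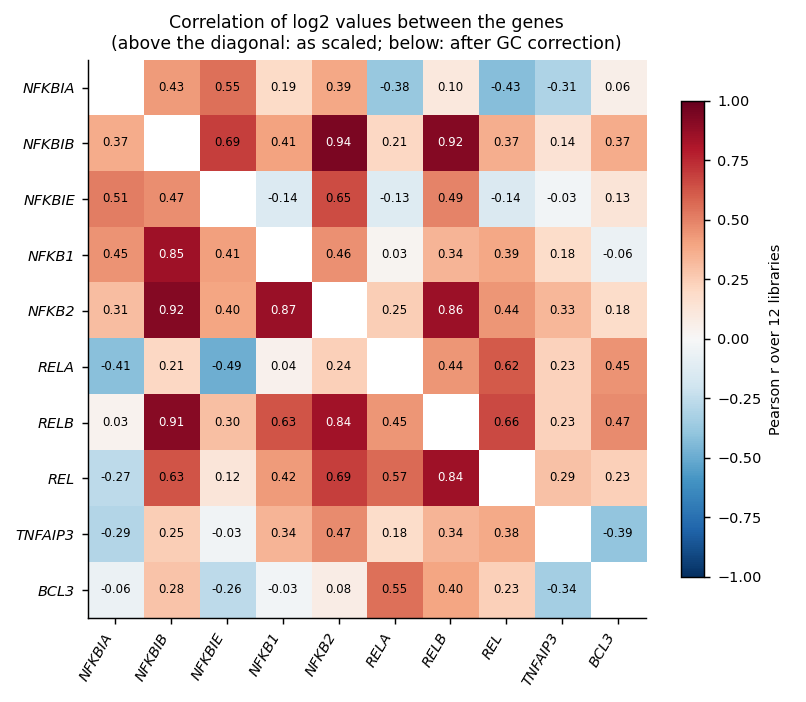
Pearson's r of log2 values over the 12 libraries for each pair of the 10 genes (colour and printed value), as scaled above the diagonal and after the GC correction below it. NFKBIB, NFKB2 and RELB form the darkest block, at 0.859 to 0.942 above the diagonal, and NFKB1 with NFKB2 goes from 0.456 to 0.867.

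Base composition moved with some of these values. The base composition tilt is the median log2 deviation of the GC-rich genes (over 52.0% GC) minus that of the GC-poor genes (up to 43.2%). It was -0.39 in WT DMSO replicate 2, -0.115 in WT DMSO replicate 3 and between -0.118 and 0.246 in the other libraries. NFKBIE (61% GC in its longest transcript) followed the tilt with r 0.883 over the 12 libraries, NFKBIB (60.5%) with 0.57, NFKB2 (62.4%) with 0.551 and RELB (64.9%) with 0.404. NFKB1 (36%) had r -0.366. After a correction for GC share, chosen after seeing the data, the cordycepin difference between the lines was -0.914 for NFKB2, -1.44 for RELB and -0.682 for NFKBIB, and the difference between the lines in DMSO was 0.44 for NFKB2, 0.41 for NFKBIE and 0.242 for NFKBIB (0.47 before it). The EGF difference between the lines for NFKBIE was then -0.582 (adjusted p 0.988). After the correction NFKBIB and NFKB2 still had r 0.918, and none of the 10 genes passed in any of the 9 comparisons.

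**Figure D5:**
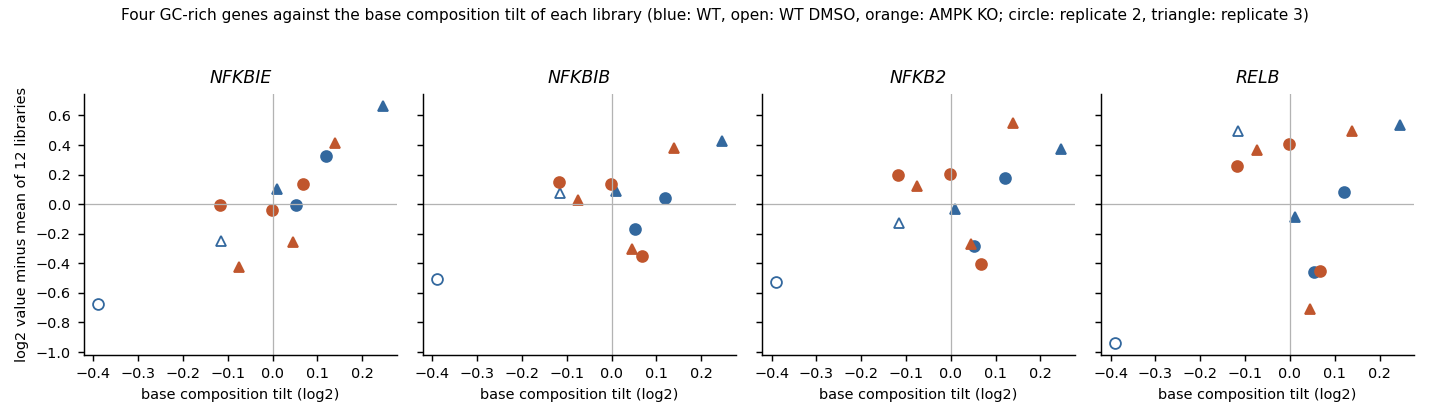
Log2 value minus the mean of the 12 libraries (vertical axis) of 4 GC-rich genes against the base composition tilt of each library (horizontal axis, log2), with WT in blue (WT DMSO open), AMPK KO in orange, replicate 2 as circles and replicate 3 as triangles. NFKBIE follows the tilt (r 0.883), and for RELB the AMPK KO cordycepin+EGF libraries lie low at a tilt of 0.0454 and 0.0679.

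The rest of the pathway was read from 5 lists of genes. Of 15 genes of the I kappa B kinase complex and its upstream kinases, 14 were tested. TAB2, an adaptor of the kinase TAK1, was the 1 gene of any list that passed adjustment, in AMPK KO against WT in DMSO+EGF. It was at 31.9 and 34.2 RPKM in AMPK KO and 18.7 and 18.2 in WT, a log2 difference of 0.84 (SE 0.155, adjusted p 0.0416). The call was lost with a replicate block (adjusted p 0.0513, or 0.0738 within each cell line), after the GC correction (0.0579) and on leaving out any library but those of WT DMSO, up to 0.279, while the difference itself stayed between 0.789 and 0.892 in all alternatives. With cordycepin in AMPK KO cells 6 of the 14 had an unadjusted p under 0.05, all lower, where 21.8% of all genes tested had one in either direction, with a median of -0.182 beside 0.0556 over all genes. TBK1, a kinase related to the I kappa B kinases, had the largest of these with no overlap, at 8.21 RPKM in DMSO+EGF and 5.55 in cordycepin+EGF (log2 difference -0.48, adjusted p 0.126). TBK1 passed by voom (adjusted p 0.0372) and in the fit without the WT DMSO libraries (0.047). These called 1301 and 1356 genes, against 104 as reported. In WT cells none of the 14 had an unadjusted p under 0.05 with cordycepin, where 16.0% of all genes did. The AMPK KO DMSO+EGF libraries also served in the comparison of the lines. There, 5 of the 14 were higher in AMPK KO at an unadjusted p under 0.05 and none lower. Of all genes, 22.5% had one in either direction. With EGF in WT cells, 1 of the 14 was higher and 2 were lower at that threshold, where 9.72% of all genes passed it. TBK1 was among the lower, at 7.14 RPKM in DMSO and 5.31 in DMSO+EGF (log2 difference -0.41, adjusted p 0.497).

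Of 14 receptors and adaptors, 9 were tested. None reached an unadjusted p under 0.05 with EGF in either line or with cordycepin in WT cells, and 1 did so in AMPK KO cells, the death domain adaptor FADD, at 1.4 RPKM in DMSO+EGF and 0.762 in cordycepin+EGF (log2 difference -0.55, adjusted p 0.182). Of 18 ubiquitin ligases and deubiquitinases, 17 were tested. With cordycepin, 3 of the 17 were lower at an unadjusted p under 0.05 in WT cells (16.0% of all genes had one in either direction), and 5 were lower and 1 higher in AMPK KO cells (21.8% of all genes). CUL1, the scaffold of the ligase that marks I kappa B proteins, had 23.2 RPKM in DMSO+EGF and 11.6 with cordycepin in WT cells (log2 difference -0.92, adjusted p 0.267). By voom its adjusted p was 0.0407, among 904 genes called against 1 as reported. RNF11, a partner of A20, had 25.2 and 16.2 RPKM in the same conditions in AMPK KO cells (-0.58, adjusted p 0.0931). RNF11 passed with array weights (adjusted p 0.0387), by voom (0.036) and in the fit without the WT DMSO libraries (0.0344). These called 1193, 1301 and 1356 genes, against 104 as reported. With EGF, RBCK1, a subunit of the linear ubiquitin ligase, had 0.37 in WT cells (adjusted p 0.497), and TNIP2, a partner of A20, had -0.36 in AMPK KO cells (adjusted p 1.0).

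All 11 atypical I kappa B proteins and nuclear co-regulators were tested. NFKBID, a nuclear I kappa B protein, had 2.7 RPKM in DMSO and 4 in DMSO+EGF in WT cells (log2 difference 0.47, adjusted p 0.497) and 2.82 RPKM in DMSO+EGF and 4.3 with cordycepin in AMPK KO cells (0.57, adjusted p 0.12). NKAP, a nuclear protein named for NF-kB activation, had 2.83 RPKM in DMSO+EGF and 1.49 with cordycepin in WT cells (-0.71, adjusted p 0.298). By voom the adjusted p of NKAP was 0.0495, among 904 genes called against 1 as reported. Of 28 textbook NF-kB target genes 12 were tested, 7 were listed under the minimum, CXCL8, ICAM1 and PTGS2 among them, and 9, TNF and IL6 among them, were not analysed here. With EGF, 2 of the 12 were higher at an unadjusted p under 0.05 in WT cells and none in AMPK KO cells, where 9.72% and 2.42% of all genes had one in either direction, a difference between the lines that was not tested for the list. IER3, an early response gene, had 6.05 and 6.81 RPKM in DMSO and 8.5 and 10.8 in DMSO+EGF in WT cells (0.51, adjusted p 0.497). With cordycepin, CCND1 (cyclin D1) had 35.9 RPKM in DMSO+EGF and 21.6 with cordycepin in WT cells (-0.66, adjusted p 0.288), and RIPK2, a kinase of innate immune signalling, had 11.9 and 7.98 RPKM in AMPK KO cells (-0.5, adjusted p 0.0788). RIPK2 passed with array weights (adjusted p 0.0384), by voom (0.0423) and in the fit without the WT DMSO libraries (0.0375). These called 1193, 1301 and 1356 genes, against 104 as reported.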

How the data were processed

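Stranded, ribosomal RNA-depleted libraries of 12 HEK293 samples were sequenced by the authors as paired reads of 150 bases, mapped to GRCh38.p13 and counted per gene with Rsubread. The authors deposited RPKM values. They left out the first replicate of every group as aberrant, and it was not analysed here. The annotation release and the rule for keeping genes are not given in the sources used here. The table listed 26058 genes, and 2 further rows that named no gene were left out. IDs of 26029 genes were matched to GENCODE release 44. Coordinates are GRCh38.

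The genes and lists were chosen with earlier results of these data known. Values were scaled by the upper quartile, as in the study, and fitted on the log2(RPKM + 0.5) scale with limma 3.58.1 in R 4.3.3 (group means, all 12 libraries, eBayes with trend, two-sided, Benjamini-Hochberg adjustment within each of 9 comparisons) for the 22067 genes whose mean over the libraries reached 0.5 RPKM. Residual degrees of freedom were 6, or 8.96 with limma's moderation, from which SE and 95% intervals were taken. Named genes were the 10 members, genes of the 5 lists with an adjusted p under 0.05 in any comparison or with the largest difference of their list in a treatment comparison (unadjusted p under 0.05 and no overlap between libraries), and the 5 genes most like each of NFKBIA and TNFAIP3, of which 1 is not reported here. PRKAA1, PRKAA2 and EGR1 were added as checks after their values were seen.

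Each RPKM value divided by the worth of 1 read gives the read number. With the annotated exon length this came out whole (tolerance 0.05 reads) in every library for 96.25% of genes, and for 98.94% once the length was searched for. TNFAIP3 needed 6394 bases in place of the annotated 6443. These reads entered voom (21846 genes) as an alternative. The study calls the replicates biological, and the sources used here do not say whether they were separate cultures, so p-values measure the spread between these samples. Differences between replicates 3 and 2 correlated across genes between the WT groups (r 0.136, 0.282 and 0.314) but not between the AMPK KO groups (r -0.122 to 0.0307), and between a WT and an AMPK KO group r ran from -0.0809 to 0.322. The replicate number entered as a block, shared or within each line, in alternative fits. The fits were also run on simulated reads, with the same spread in every library and no base composition tilt. The wide gap between the WT DMSO replicates was not simulated, so these runs do not bear on it.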

Additional observations from a re-analysis of the deposited data

Results flagged for a closer look

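The treatment effect of 4 results differed between WT and AMPK KO cells at an unadjusted p under 0.05 in limma's interaction test, and none passed adjustment over the 22067 genes. The cordycepin effect in AMPK KO minus that in WT was -0.93 for NFKB2 (p 0.00688, adjusted p 0.132), -1.47 for RELB (p 0.0285, adjusted p 0.188) and -0.69 for NFKBIB (p 0.0429, adjusted p 0.22), each on the log2 scale. In all of these, the 2 libraries of cordycepin+EGF lay lower in AMPK KO than in WT. The EGF effect in AMPK KO minus that in WT was -0.92 for NFKBIE (p 0.0307, adjusted p 0.57), and it was -0.58 after the GC correction. Groups of 2 libraries are too small for a check of single samples that stand apart.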

How the results depend on the processing

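The 90 differences of the 10 genes were recomputed under 15 other settings and on leaving out each of the 12 libraries. The GC correction and the fit of the 10 libraries other than WT DMSO were added after the data were seen. Of 2391 recomputed values, 2335 kept their sign, and 63 of the 90 differences kept it throughout. The other 27 had main values of up to 0.674 in size, and 24 of them turned on leaving out a library. BCL3 had no value at a minimum mean of 1 RPKM, and comparisons with WT DMSO had none in the fit of the 10 other libraries. With 2 libraries per group and low read numbers for BCL3, RELB and NFKBIE, small differences could not be shown. Where a call or sign changed, the cause was not tested.

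None of the 10 genes passed adjustment as reported. For cordycepin in AMPK KO cells, 1 passed in the fit of the 10 libraries other than WT DMSO, where 1356 of 22067 genes did. For the cordycepin difference between the lines, 2 passed in that fit (among 2000 genes called) and 2 by voom (among 2062). For AMPK KO against WT in DMSO, 2 passed by voom (among 1769). In DMSO+EGF 1 passed by voom (among 2448) and 1 with array weights (among 5041). Fits that leave a group with 1 library are not counted here.

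Correlations of the replicate differences were over 0.1 between all WT groups and between none of the AMPK KO groups. Between WT cordycepin+EGF and AMPK KO DMSO, however, r was 0.322, above every value within WT. Whether replicate numbers mark pairs is thus not settled by these values, and the reported fit used no block. With a replicate block, shared or within each cell line, and after the GC correction, with or without that block, 0 of the 10 passed in any comparison. The cordycepin difference between the lines for NFKB2 had an adjusted p of 0.105 with the replicate block and 0.0961 with the block within each cell line.

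The differences that turned are given on the log2 scale, with the reported value in parentheses. After the GC correction, with or without the block, the EGF effect in WT cells was -0.0353 for NFKBIB (0.178), 0.0397 for NFKB1 (-0.0908) and -0.0815 for NFKB2 (0.168). In AMPK KO cells it was 0.0113 for RELB (-0.141), and its difference between the lines was -0.169 for NFKB1 (0.0516) and 0.362 for RELB (-0.0897). The cordycepin effect in WT cells was then 0.0467 for NFKB1 (-0.00885). With the GC correction and the block together, AMPK KO against WT was -0.0339 for NFKBIA in DMSO (0.0723) and 0.0181 for NFKBIE in DMSO+EGF (-0.267). By voom, the EGF effect in WT cells was 0.0551 for RELA (-0.0495), 0.54 for RELB (-0.0517, and 0.00614 with a pseudocount of 0.1) and 0.142 for BCL3 (-0.321). RELA in AMPK KO against WT in DMSO (-0.0153) was 0.0741 by voom and 0.00515 with RPKM as deposited.

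On leaving out single libraries, the EGF effect in WT cells ran from -0.114 to 0.471 for NFKBIB, from -0.0325 to 0.368 for NFKB2, from -0.254 to 0.155 for RELA, from -0.768 to 0.664 for RELB and from -0.911 to 0.269 for BCL3, each lowest without WT DMSO replicate 2 and highest without replicate 3. In AMPK KO cells it ran from -0.366 to 0.0577 for NFKBIA, from -0.142 to 0.0632 for NFKB1, from -0.187 to 0.0457 for REL, from -0.0328 to 0.287 for TNFAIP3 and from -0.00633 to 0.458 for BCL3. Between the lines it ran from -0.0507 to 0.154 for NFKB1, from -0.806 to 0.626 for RELB and from -0.0431 to 1.14 for BCL3. The cordycepin effect ran from -0.0573 to 0.0396 for NFKB1 in WT cells. In AMPK KO it ran from -0.148 to 0.0839 for NFKBIA, from -0.0504 to 0.363 for NFKBIE and from -0.211 to 0.00435 for TNFAIP3. AMPK KO against WT in DMSO ran from -0.139 to 0.284 for NFKBIA, from -0.22 to 0.189 for RELA, from -0.0423 to 1.39 for RELB, from -0.0194 to 0.327 for REL and from -1.1 to 0.0837 for BCL3, and in DMSO+EGF from -0.00212 to 0.255 for NFKBIB and from -0.0616 to 0.143 for BCL3.

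The number of all genes called moved more. Over the other settings and on leaving out single libraries together, it ran for EGF from 1 to 702 in WT cells (5 as reported, 702 without WT DMSO replicate 2) and from 1 to 4 in AMPK KO (3). For cordycepin it ran from 0 to 904 in WT cells (1, most by voom), from 0 to 1360 in AMPK KO (104, most without WT DMSO replicate 2) and from 0 to 2062 for the difference between the lines (0, most by voom), and for the EGF difference from 0 to 13 (0). For AMPK KO against WT it ran from 1 to 3065 in DMSO (97, most without WT DMSO replicate 3), from 6 to 5041 in DMSO+EGF (383, most with array weights) and from 2 to 340 with cordycepin and EGF (26, most by voom).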

Other observations

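The genes most like the feedback inhibitors over the 12 libraries were not NF-kB genes of the lists. Among the 18775 genes whose mean reached 1 RPKM, the log2 values of NFKBIA followed those of CLPTM1L (Pearson's r 0.922), GUSB (0.909), RN7SL268P (0.903), TIMM13 (0.896) and RPL7A (0.889). Among the genes most like TNFAIP3 were WDR5B (0.911), NKD1 (0.894), TMEM181 (0.891) and RBM15B (0.879). The median r over all these genes was 0.0174 for NFKBIA and 0.0176 for TNFAIP3. RN7SL268P and RPL7A have near-identical copies in the genome, so their reads are uncertain. The libraries share groups, depth and base composition, and a ranking over 12 of them is a description.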
